A study of Mus musculus with 3 samples.

Results

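The activator protein 1 (AP-1) genes *Fos*, *Fosb*, *Fosl1*, *Fosl2*, *Jun*, *Junb*, *Jund*, *Atf3* and *Batf* were followed in single bone marrow derived macrophages (BMDMs) treated with lipoproteins of Borrelia burgdorferi, the spirochete of Lyme disease. They were taken by their symbols and are 9 of the 32285 genes in the count matrices, each with 1 row. *Fos*, *Fosb* and *Jun* were lowest after 4 hours of treatment, with *Fos* 29.0 times, *Fosb* 85.1 times (on 90 UMIs in LP4) and *Jun* 8.90 times lower than in the control library. *Junb* was highest at 1 hour, at 2.03 times the control, and *Batf* at 4 hours, at 9.20 times the control. *Jund* and *Fosl2* stayed within a ratio of 1.17 of the control in both treated libraries, and *Atf3* was 1.33 times lower than the control at 1 hour and 1.37 times lower at 4 hours.

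BMDMs of female C3H/HeN mice, 6 to 8 weeks old, were grown with L929 cell conditioned medium from marrow that the labels describe as pooled, and then received either PBS (Ctrl) or purified borrelial lipoproteins (BbLP) at 1 µg/mL. LP1 cells had BbLP for 1 hour and LP4 cells for 4 hours. The labels name no transgene or deletion in any group. Ctrl cells were collected at 4 hours, so between LP1 and Ctrl the treatment and the time in culture cannot be told apart. For each group, per the methods, BMDMs of 3 mice were treated independently, and the cells of 3 wells were detached with Accutase, pooled and captured as 1 library, so no condition has a replicate, no test between conditions was possible, and every interval given is an exact 95% interval for counting error only.

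AP-1 is a dimer of basic leucine zipper (bZIP) proteins. *Fos* proteins pair with *Jun* proteins, *Jun* proteins can also pair with each other, and the dimers bind short palindromic sites in promoters and enhancers. *Fos*, *Fosb*, *Jun*, *Junb* and *Atf3* are immediate early genes, which are transcribed within minutes of a stimulus without new protein synthesis and whose RNA is short-lived, and MAP kinases act on both their transcription and the proteins they encode. In macrophages, AP-1 works beside NF-kappaB at genes of inflammation, and *Atf3* is known as a factor that can repress cytokine genes.

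The promoters of the 5 genes with a ratio of at least 2 between some pair of libraries and an entry in the RefSeq promoter table are shown, since these are the members whose levels moved most. Each sequence runs 5′ to 3′ on the strand of the gene, from 250 bases before to 50 bases after the start that RefSeq gives on build GRCm38.p6. Capitals mark the TATA motif TATAAA, the motif TGACATCA and the motif TGACG, each searched on both strands.
Fos: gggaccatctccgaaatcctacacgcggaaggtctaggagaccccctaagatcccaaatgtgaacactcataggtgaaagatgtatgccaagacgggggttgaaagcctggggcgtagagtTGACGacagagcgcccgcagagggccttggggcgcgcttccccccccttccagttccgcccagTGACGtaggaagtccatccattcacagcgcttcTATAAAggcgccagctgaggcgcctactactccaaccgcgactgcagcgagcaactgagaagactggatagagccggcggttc
Fosb: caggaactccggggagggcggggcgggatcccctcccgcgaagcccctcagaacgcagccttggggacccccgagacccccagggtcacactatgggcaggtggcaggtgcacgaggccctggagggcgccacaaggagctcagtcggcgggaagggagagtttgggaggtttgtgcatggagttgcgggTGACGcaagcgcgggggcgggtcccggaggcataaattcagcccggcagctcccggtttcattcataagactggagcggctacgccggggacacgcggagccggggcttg
Jun: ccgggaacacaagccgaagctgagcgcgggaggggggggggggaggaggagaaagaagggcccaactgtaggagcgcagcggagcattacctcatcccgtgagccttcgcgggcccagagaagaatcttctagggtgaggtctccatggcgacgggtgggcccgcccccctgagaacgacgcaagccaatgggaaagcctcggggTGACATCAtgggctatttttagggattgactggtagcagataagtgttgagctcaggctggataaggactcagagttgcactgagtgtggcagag
Junb: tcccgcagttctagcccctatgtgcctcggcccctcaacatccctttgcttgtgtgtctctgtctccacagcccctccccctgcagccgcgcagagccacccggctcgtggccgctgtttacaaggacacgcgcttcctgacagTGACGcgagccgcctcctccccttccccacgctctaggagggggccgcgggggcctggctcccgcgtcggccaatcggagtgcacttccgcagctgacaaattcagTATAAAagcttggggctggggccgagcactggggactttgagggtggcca
Batf: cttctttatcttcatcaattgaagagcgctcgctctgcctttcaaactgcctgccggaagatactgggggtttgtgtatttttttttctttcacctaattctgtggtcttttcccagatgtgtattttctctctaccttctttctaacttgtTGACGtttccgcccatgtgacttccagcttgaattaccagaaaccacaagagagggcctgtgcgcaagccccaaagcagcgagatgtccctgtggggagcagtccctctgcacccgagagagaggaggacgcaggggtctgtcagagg
The windows lie at chr12:85473640-85473939 on the plus strand for *Fos*, chr7:19309996-19310295 on the minus strand for *Fosb*, chr4:95052173-95052472 on the minus strand for *Jun*, chr8:84978699-84978998 on the minus strand for *Junb* and chr12:85686470-85686769 on the plus strand for *Batf*.

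In all, 8 of the 9 genes had an entry; *Fosl1* had none. TGACG, the first letters of the cyclic AMP response element TGACGTCA, was added to the search after the sequences were read. It was found in the windows of *Fos* (at 2 places), *Fosb*, *Junb*, *Atf3* and *Batf*, and it is in 21.0% of the 27025 promoters of the same length. TGACATCA was found only in *Jun* among the 8, at bases -45 to -38 from the start, and is in 3.76% of promoters. TATAAA was found in *Fos* at bases -33 to -28 and in *Junb* at bases 1 to 6, and is in 14.2% of promoters. In the GENCODE annotation *Junb* starts at chr8:84978718, downstream of this TATAAA, so its place after the start holds for the RefSeq start alone. The AP-1 site TGACTCA (5.17% of promoters), TGACGTCA (1.88%) and the CArG box bound by serum response factor (1.57%) were found in none of the 8 windows. The windows reach 250 bases before the start, so sites farther upstream could not be found. GGAA, the core bound by Ets factors, was in all 8 but is also in 95.9% of promoters, and GGGCGG, the core bound by Sp1, was in *Fos*, *Fosb*, *Fosl2*, *Jun*, *Atf3* and *Batf* and is in 35.9% of promoters. The window given for *Jund* ends before the start of that gene in the GENCODE annotation, so it may not hold the promoter used in these cells. The windows given for *Atf3* and *Fosl2* lie wholly downstream of the GENCODE starts of those genes, and the same limit holds for them.

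In the GENCODE vM21 annotation of GRCm38 (mm10), *Fos* lies at chr12:85473890-85477273 and *Batf* near it at chr12:85686669-85709087, both on the plus strand, as are *Fosl1* (chr19:5447547-5455946), *Fosl2* (chr5:32135801-32157842) and *Jund* (chr8:70698949-70700616). On the minus strand are *Fosb* (chr7:19302696-19310051), *Jun* (chr4:95049034-95052222), *Junb* (chr8:84974484-84978718) and *Atf3* (chr1:191170296-191218039). Genes on the opposite strand overlap *Fosl1* (*Ccdc85b*), *Jun* (*Junos*), *Junb* (*Prdx2*), *Jund* (*Gm11175*) and *Atf3* (*Gm24748*), and whether the counting kept strands apart is not given in the sources used here.

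The libraries held 6071 Ctrl, 5065 LP1 and 4670 LP4 cells after the limits on UMIs, genes and mitochondrial share, with 35688939, 52475723 and 61402275 UMIs (unique molecular identifiers, each 1 captured transcript). These limits kept 99.15% of the Ctrl, 98.95% of the LP1 and 92.68% of the LP4 barcodes, so they removed most from LP4. In the kept cells the median mitochondrial share was 1.97%, 2.84% and 3.17% in Ctrl, LP1 and LP4. The median depth per cell was lowest in Ctrl at 5133 UMIs, against 9343 for LP1 and 11784 for LP4, so shares of cells with a UMI were compared after every cell was thinned to 2000 UMIs. Of the kept cells, 9 barcode sequences occurred in both LP1 and Ctrl, 7 in both LP4 and Ctrl and 3 in both LP4 and LP1. All 11 macrophage markers reached 10 CPM (UMIs of a gene per 1000000 UMIs of the library) in every library, and 90.2% to 91.8% of cells fell in macrophage-like clusters. The summed level of 11 neutrophil markers was 459 to 713 CPM. A UMI marks the 3′ end of a transcript, so CPM values were not divided by gene length.

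**Figure D1:**
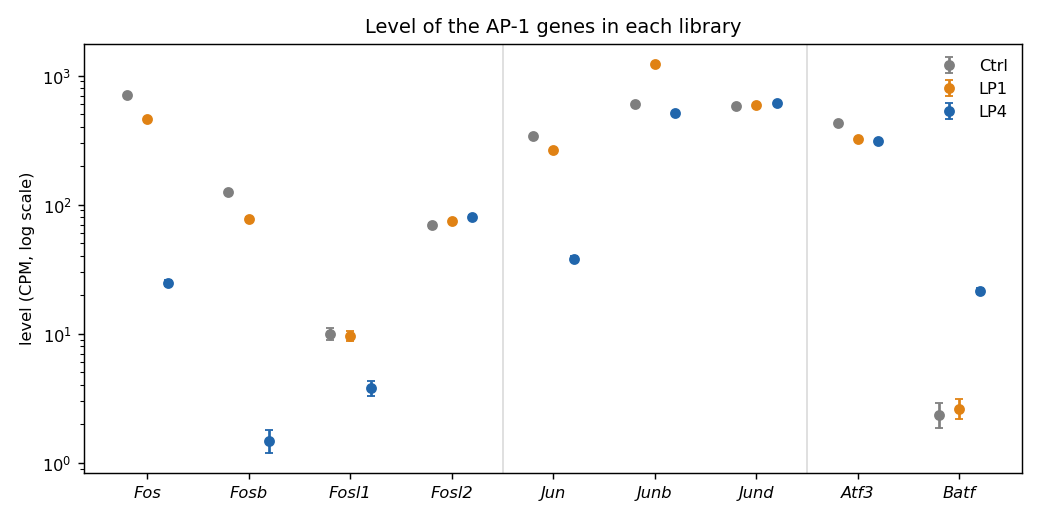
Level of each AP-1 gene in Ctrl (grey), LP1 (orange) and LP4 (blue), in CPM on a log axis, as points with exact Poisson 95% intervals for counting error. *Fos* lies at 712, 463 and 24.6 CPM, *Junb* is highest in LP1 at 1231 CPM, *Batf* is highest in LP4 at 21.4 CPM, and the 3 points of *Jund* lie between 585 and 613 CPM.

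*Fos*, the founding member of the family, stood at 712 CPM in Ctrl (interval 703 to 720), 463 CPM in LP1 (457 to 469) and 24.6 CPM in LP4 (23.4 to 25.9). Its level was high in Ctrl and LP1 and low in LP4, and no pair of intervals overlapped. The log2 ratio to Ctrl was -0.62 in LP1 (-0.64 to -0.59) and -4.86 in LP4 (-4.93 to -4.78). At 2000 UMIs per cell, a *Fos* UMI was seen in 65.5% of cells in Ctrl, in 52.3% in LP1 and in 3.05% (2.57% to 3.59%) in LP4. Cells with a *Fos* UMI also held fewer of them, at a mean of 2.24 in Ctrl, 1.81 in LP1 and 1.17 in LP4.

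*Fosb*, which encodes a close relative of *Fos*, showed the same order at a lower level, with 125 CPM in Ctrl (121 to 128), 77.9 CPM in LP1 (75.6 to 80.4) and 1.47 CPM in LP4 (1.18 to 1.80). The 90 *Fosb* UMIs of LP4 stand against 4449 in Ctrl. Its log2 ratio of LP4 to Ctrl, -6.41 (-6.73 to -6.11), was the lowest of the 8103 genes compared, those that reached 10 CPM in some library, while *Fos* ranked 8 and *Jun* 40 from the bottom. A *Fosb* UMI was found in 20.7% of thinned cells for Ctrl, 14.0% for LP1 and 0.216% (0.104% to 0.397%) for LP4. Neutrophil-like cells, which are few, had a *Fosb* UMI in 2 of 22, 0 of 21 and 0 of 28 thinned cells of Ctrl, LP1 and LP4. The part of free RNA in the LP4 level of *Fosb* was not tested, and so few UMIs do not tell low expression from RNA outside the cells.

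*Fosl1* and *Fosl2* encode the Fos-related antigens Fra-1 and Fra-2. *Fosl1* was rare, with 9.95 CPM in Ctrl, 9.62 CPM in LP1 and 3.76 CPM in LP4. Its log2 ratio to Ctrl was -0.05 in LP1 (-0.25 to 0.15), where the interval spans 0 and other scalings turned the sign, and -1.40 in LP4 (-1.65 to -1.16). *Fosl2* had 68.8 CPM in Ctrl (66.2 to 71.6), 74.0 CPM in LP1 (71.7 to 76.4) and 80.4 CPM in LP4 (78.1 to 82.6). Its log2 ratio to Ctrl was 0.10 in LP1 and 0.22 in LP4, so LP4 was the highest of the libraries for *Fosl2* and the lowest for the other 3 members of the *Fos* family. In LP4, *Fosl2* made up 5.02% of all UMIs of the 9 genes and *Fos* 1.53%, against 2.40% and 24.8% in Ctrl.

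*Jun*, the gene of c-Jun, had 339 CPM in Ctrl (333 to 345), 263 CPM in LP1 (259 to 268) and 38.1 CPM in LP4 (36.5 to 39.6). It shared the order of *Fos* and *Fosb*, with log2 ratios to Ctrl of -0.36 in LP1 (-0.40 to -0.33) and -3.15 in LP4 (-3.22 to -3.09). Thinned cells with a *Jun* UMI made up 42.5% of Ctrl, 36.9% of LP1 and 6.92% (6.20% to 7.69%) of LP4. Another gene of the same strand, *Gm12703*, lies within 1 kb downstream of *Jun*.

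*Junb* encodes a *Jun* protein that is often set against c-Jun, since it activates many AP-1 sites more weakly. It had 606 CPM in Ctrl (598 to 614), 1231 CPM in LP1 (1221 to 1240) and 509 CPM in LP4 (503 to 514). LP1 was high, and LP4 was lower than Ctrl by an amount that depended on the scaling. Relative to Ctrl the log2 ratio was 1.02 in LP1 (1.00 to 1.05) and -0.25 in LP4 (-0.28 to -0.23), and LP4 stood at -1.28 (-1.29 to -1.26) relative to LP1. Under median-of-ratios scaling the ratio of LP4 to Ctrl was -0.05. In LP1, 89.3% of thinned cells had a *Junb* UMI and 14.1% had 5 or more, against 68.6% and 1.93% in Ctrl and 61.2% and 2.05% in LP4.

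*Jund*, the *Jun* gene that resting cells express steadily, had 585 CPM in Ctrl (577 to 593), 595 CPM in LP1 (588 to 601) and 613 CPM in LP4 (607 to 619). The intervals of Ctrl and LP1 overlapped, and that of LP4 lay above both. The log2 ratio to Ctrl was 0.02 in LP1 (-0.0020 to 0.05) and 0.07 in LP4 (0.04 to 0.09), which is smaller than the shifts that another scaling of the libraries gave. The share of thinned cells with a *Jund* UMI was 64.5%, 65.8% and 66.7% in Ctrl, LP1 and LP4.

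*Atf3*, a stress-responsive member of the ATF family, had 427 CPM in Ctrl (420 to 434), 321 CPM in LP1 (316 to 326) and 311 CPM in LP4 (307 to 316). Ctrl was highest. The intervals of LP1 and LP4 lay next to each other without overlap, from 315.8 CPM upward in LP1 and up to 315.5 CPM in LP4. The log2 ratio to Ctrl was -0.41 in LP1 (-0.45 to -0.38) and -0.46 in LP4 (-0.49 to -0.43). Between LP4 and LP1 it was -0.04 (-0.07 to -0.01), with a sign that turned under other scalings. The share of thinned cells with an *Atf3* UMI was 48.9%, 41.0% and 35.5% in Ctrl, LP1 and LP4.

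*Batf* encodes a bZIP protein without an activation domain of its own, which pairs with *Jun* proteins and joins IRF factors on DNA. It had 2.33 CPM in Ctrl (1.85 to 2.88), 2.61 CPM in LP1 (2.19 to 3.09) and 21.4 CPM in LP4 (20.3 to 22.6). Ctrl and LP1 overlapped and LP4 stood apart, at 1314 UMIs against 83 and 137. The log2 ratio of LP4 to Ctrl was 3.20 (2.88 to 3.54). At 2000 UMIs, the share of cells with a *Batf* UMI was 0.437% for Ctrl, 0.713% for LP1 and 4.35% (3.78% to 4.97%) for LP4, and at full depth 20.8% for LP4. *Batf* reached 10 CPM only through LP4, so it could enter the set of compared genes only by being high there.

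**Figure D2:**
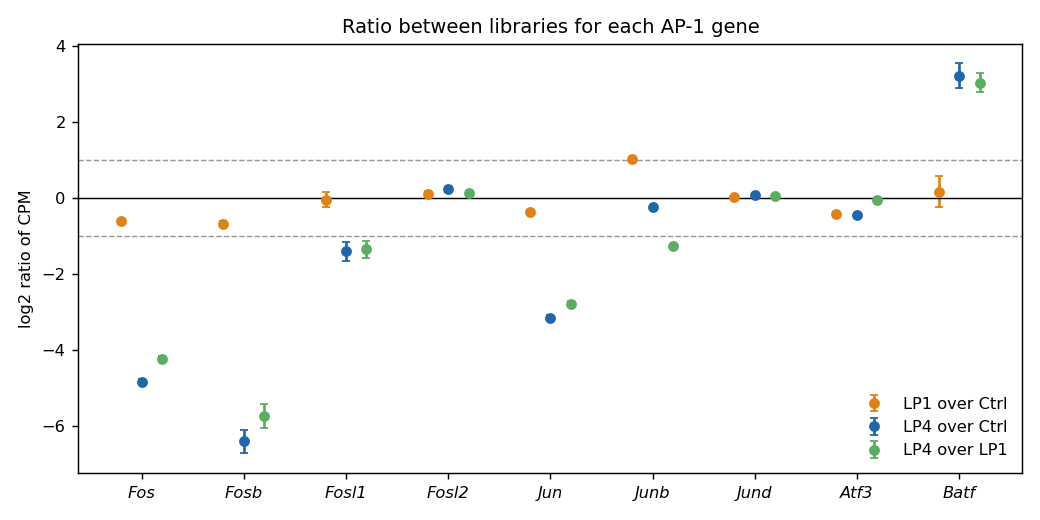
Log2 ratio of CPM of each AP-1 gene for LP1 over Ctrl (orange), LP4 over Ctrl (blue) and LP4 over LP1 (green), with exact conditional 95% intervals. Dashed lines mark a ratio of 2 in each direction. *Fosb* reaches -6.41 and *Batf* 3.20 for LP4 over Ctrl, and for LP1 over Ctrl 1 of the 9 genes, *Junb*, lies past a dashed line.

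Counted against all genes, the AP-1 genes differed between the comparisons in how many passed a ratio of 2. For LP1 over Ctrl, 1 of the 9 was higher (*Junb*) and 0 were lower, beside 0.765% higher and 0.506% lower of the 8103 genes compared. For LP4 over Ctrl, 1 was higher (*Batf*) and 4 were lower (*Fos*, *Fosb*, *Fosl1* and *Jun*), beside 10.5% higher and 9.95% lower of all genes compared. For LP4 over LP1, 1 was higher and 5 were lower, *Junb* now among them, beside 8.59% and 7.75%. Both LP4 comparisons use the same LP4 library and both control comparisons the same Ctrl library, so these counts are not independent. *Fosl1*, at 9.95 CPM, did not reach 10 CPM and is counted among the 9 but not among the 8103. Over the 9 genes the log2 ratios had a median of -0.05 (LP1 over Ctrl), -0.46 (LP4 over Ctrl) and -1.28 (LP4 over LP1), and over all genes compared of -0.02, -0.08 and -0.07.

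The makeup of the AP-1 transcripts differed between the libraries. All 9 genes together gave 2874 CPM in Ctrl, 3037 CPM in LP1 and 1602 CPM in LP4. Of these UMIs, Ctrl had 31.8% from the *Fos* family, LP1 20.6% and LP4 6.88%, while the *Jun* family gave 53.2%, 68.8% and 72.4%. *Junb* was the largest single share in LP1, at 40.5%, and *Jund* in LP4, at 38.3%, where Ctrl had *Fos* first at 24.8% with *Junb* at 21.1% and *Jund* at 20.4%. *Atf3* held 14.9%, 10.6% and 19.4% in Ctrl, LP1 and LP4. A thinned cell showed UMIs of a median of 3 of the 9 genes in Ctrl and in LP1 and of 2 in LP4, and 3 or more were seen in 72.8%, 70.7% and 27.9% of cells.

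**Figure D3:**
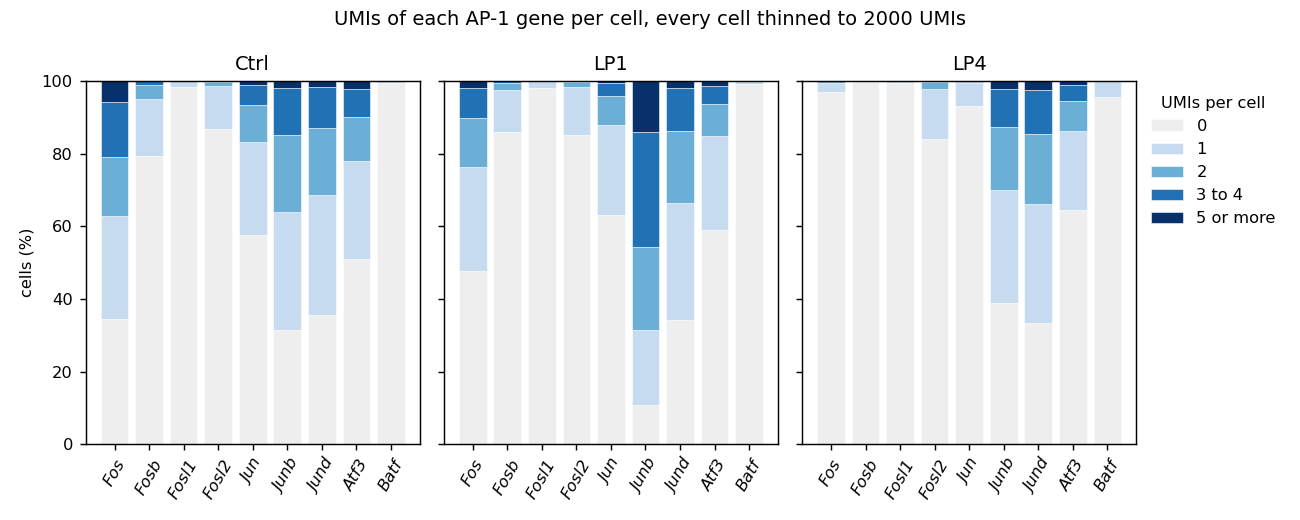
Share of cells (%) with 0, 1, 2, 3 to 4 and 5 or more UMIs of each AP-1 gene in Ctrl, LP1 and LP4, after every cell was thinned to 2000 UMIs. Cells with 0 *Fos* UMIs are 34.5% of Ctrl, 47.7% of LP1 and 97.0% of LP4, and for *Junb* the share with 5 or more is largest in LP1, at 14.1%.

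Depth per cell set the order of several shares. Without thinning, 8 of the 9 genes had a larger share of positive cells in LP1 than in Ctrl, and *Fos* was one of them, with 85.5% in Ctrl and 87.6% in LP1 although its CPM was lower in LP1. At 2000 UMIs the share of *Fos*, *Fosb*, *Jun* and *Atf3* was lower in LP1, as their CPM was. In LP4 the shares of *Fos*, *Fosb*, *Fosl1*, *Jun* and *Atf3* were lower than in Ctrl at every depth tried.

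The levels were then followed within clusters of cells. Clustering used 2000 variable genes that differed by less than 1.5 times between libraries and left out the AP-1 genes, and 6 of the 10 clusters had 50 cells or more in each library. Levels of a gene called highest or lowest across clusters are so among these 6. Clusters A to D were macrophage-like, with 4547, 3660, 3644 and 2499 cells in all, E was cycling-like with 990 and F dendritic cell-like with 257. *Egr3*, *Nr4a3* and *Apoe* were among the leading genes of A, *Fabp4* of B, *Ccnd1* and *Mcm3* of C and *Mmp12*, *Ctsk* and *Atp6v0d2* of D. *Egr3* and *Nr4a3* are immediate early genes too. The name of F rests on *H2-Eb1*, *H2-Ab1*, *H2-Aa* and *Cd74*, and no other listed dendritic cell marker was among its 10 leading genes. In F, 6 macrophage markers were also found in 50% or more of the cells, as in D. Cluster A made up 30.5%, 26.2% and 29.4% of Ctrl, LP1 and LP4 and D 14.8%, 15.5% and 17.5%, but the A cells of LP4 parted from those of the other libraries in a finer clustering. At a finer resolution of 0.8, 83.8% of the A cells of Ctrl and 83.9% of those of LP1 lay in a cluster with *Egr3* and *Slc9a9* among its leading genes, while 92.7% of those of LP4 lay in another, led by *F13a1* and *Cxcl5*. *Fosb* itself was among the leading genes of the first of these finer clusters. Leading genes were ranked with all libraries pooled. The first finer cluster held 1564 Ctrl, 1117 LP1 and 90 LP4 cells, and the second 293, 205 and 1366. Their leading genes may therefore partly restate this makeup by library. Whether the 2 finer clusters differ by kind of cell or by the response to BbLP was not tested. Ratios within A between LP4 and Ctrl may therefore set unlike cells side by side.

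*Fos*, *Fosb* and *Jun* were lower in LP4 than in Ctrl by more than 2-fold in each of the 6 clusters, but by different amounts. In Ctrl, *Fos* was highest in cluster A at 915 CPM (893 to 936) and lowest in D at 552 CPM (534 to 570). In LP1, A was again highest at 643 CPM and D lowest at 372 CPM. In LP4, at this resolution, the order was turned, since A was lowest with 7.22 CPM (5.86 to 8.81) and D highest with 59.2 CPM (55.3 to 63.4). The log2 ratio of LP4 to Ctrl for *Fos* was therefore -6.98 (-7.29 to -6.70) in A and -3.22 (-3.33 to -3.11) in D, and D, with 17.5% of the LP4 cells and 23.2% of their UMIs, held 55.8% of the *Fos* UMIs of LP4. In Ctrl, D had held 14.1% of *Fos* UMIs with 18.2% of all UMIs. The finer clusters bear on the low value of A. In the cluster with *Egr3* and *Slc9a9*, *Fos* stood at 919 CPM in Ctrl and at 30.6 CPM in LP4 (18.7 to 47.2, from 20 UMIs of 90 cells), a log2 ratio of -4.91. In the cluster led by *F13a1* and *Cxcl5* it stood at 909 CPM (293 cells) and 5.77 CPM (1366 cells), a log2 ratio of -7.30.

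At 2000 UMIs, 72.1% of A cells and 56.3% of D cells had a *Fos* UMI in Ctrl, and 1.02% and 8.32% in LP4.

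For *Fosb*, A was not alone at the top in Ctrl. It had 238 CPM in A (227 to 248.9) and 242 CPM in F (204 to 286), whose intervals overlapped, against 49.5 CPM in D (44.3 to 55.3). Its LP4 level was 1.06 to 2.93 CPM across the 6 clusters, and the log2 ratio to Ctrl ran from -7.00 in A to -5.55 in D. *Jun* was highest in A in Ctrl at 463 CPM (448 to 479), and in LP4 it was 28.9 to 67.3 CPM, with F highest (52.4 to 85.2). The log2 ratio of LP4 to Ctrl for *Jun* was least in F, at -1.80, and -3.58 in A. Between LP1 and Ctrl the intervals of *Fos*, *Fosb*, *Jun* and *Atf3* lay below 0 in 6 of 6 clusters.

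*Fosl1* followed another order. Among clusters A to F its level was highest in the cycling-like cluster E. There it had 20.0 CPM in Ctrl (15.5 to 25.4), 21.5 CPM in LP1 (17.9 to 25.7) and 8.82 CPM in LP4 (6.41 to 11.8). The stromal-like cluster J, of 3, 3 and 7 cells in Ctrl, LP1 and LP4, is not among them. It held 1.97%, 0.396% and 5.63% of the *Fosl1* UMIs of these libraries, with 0.0959%, 0.111% and 0.221% of all their UMIs. In A, where *Fos* and *Jun* were high in Ctrl, *Fosl1* had 3.26, 3.56 and 2.83 CPM, with intervals that overlapped between all 3 libraries.

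**Figure D4:**
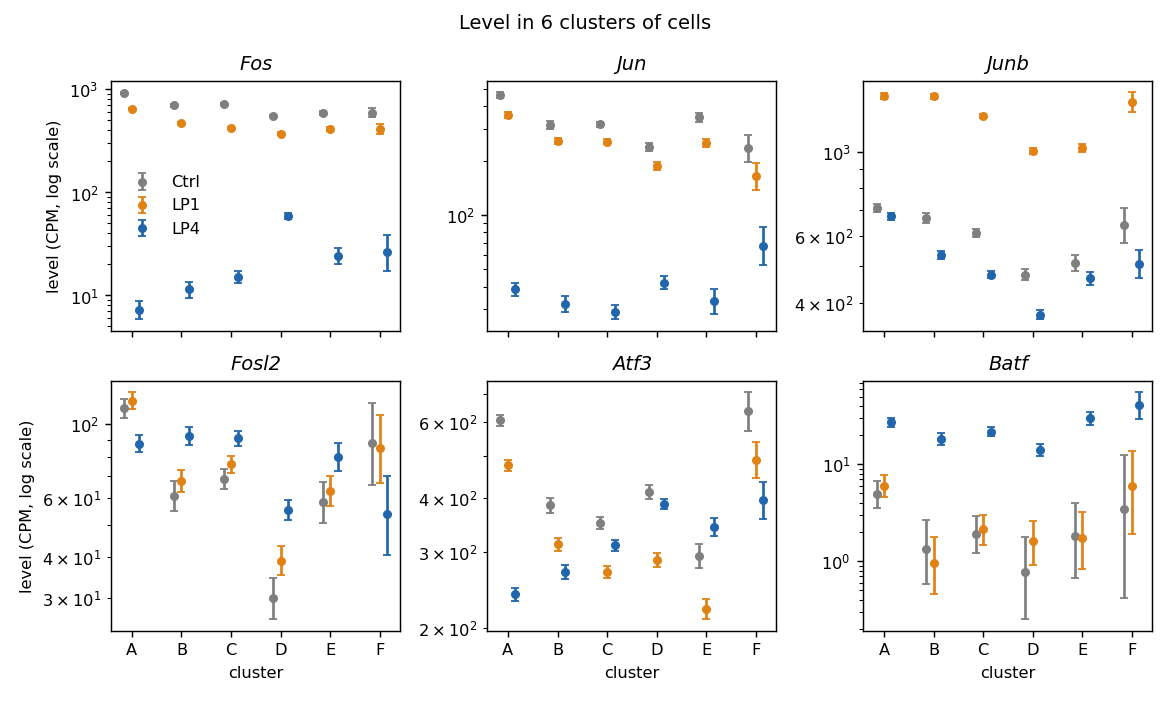
Level of 6 AP-1 genes in clusters A to F for Ctrl (grey), LP1 (orange) and LP4 (blue), in CPM on log axes that differ between panels, with exact Poisson 95% intervals. In LP4, cluster D has the highest *Fos* level (59.2 CPM) and A the lowest (7.22 CPM), while in Ctrl A is highest, and *Atf3* spans 294 to 636 CPM in Ctrl and 239 to 395 CPM in LP4.

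*Junb* was higher in LP1 than in Ctrl in all 6 clusters, by a log2 ratio of 0.98 to 1.08 that was at least 1 in 5 of them. For LP4 over Ctrl its ratio was -0.37 to -0.07 across the 6. Under TMM scaling it became 0.10 in A and 0.04 in E, so the direction there rests on the scaling. For *Batf* all 6 clusters were higher in LP4 than in Ctrl, by 2.46 in A to 4.19 in D, where Ctrl had 38 and 5 *Batf* UMIs and LP4 365 and 199. *Batf* was highest in LP4 in F at 41.0 CPM (29.5 to 55.4) and lowest in D at 14.0 CPM (12.1 to 16.1).

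*Atf3* and *Fosl2* differed in direction between the clusters. In A, *Atf3* stood at 607 CPM in Ctrl (590 to 625) and at 239 CPM in LP4 (231 to 248), with a log2 ratio of -1.35 (-1.41 to -1.28). In E the level was 294 CPM in Ctrl and 343 CPM in LP4, with a ratio of 0.22 (0.11 to 0.34). The ratios of C and D, -0.17 and -0.10, were near 0, and that of D became 0.07 under TMM scaling and 0.11 under median-of-ratios scaling. *Fosl2* was lower in LP4 in A (-0.35, -0.48 to -0.22) and F (-0.72, -1.29 to -0.14) and higher in the other 4, up to 0.88 (0.65 to 1.11) in D. The lower value in A was not seen in the finer clusters that hold most of its cells, where the ratio was -0.03 (-0.40 to 0.31) and -0.01 (-0.27 to 0.26), while that of *Atf3* was -1.16 (-1.38 to -0.95) in the one and between -1.12 and -0.88 (its interval) in the other. With D between 25.9 and 34.5 CPM (its interval) and A at 112 CPM in Ctrl, and with 55.2 and 87.6 CPM in LP4, the gap in *Fosl2* between D and A was smaller in LP4. Cells of a cluster in 1 library are not replicates, and none of these differences was tested.

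Neutrophil-like cells, 33 in Ctrl, 25 in LP1 and 28 in LP4, were too few to set beside the clusters above. A *Jun* UMI was seen in 9 of 22, 7 of 21 and 9 of 28 thinned cells of that cluster, a share of 32.1% in LP4 (15.9% to 52.4%) where 6.61% of macrophage-like cells had one. In LP4 the genes whose counts varied most like *Jun* across cells were *Ngp*, *S100a8* and *S100a9*, all neutrophil genes, at Pearson r of 0.09, 0.09 and 0.08. These cells held 1.93% of the *Jun* UMIs of LP4 with 0.390% of all UMIs, and their part in the correlations was not tested.

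Co-expression between cells was weak. Across the thinned cells of each library (5949 in Ctrl, 5052 in LP1, 4625 in LP4), 0 of the 36 pairs of AP-1 genes reached a Pearson r of 0.1 on log counts. The highest values were those of *Fos* with *Fosb*, 0.097 in both Ctrl and LP1, and of *Fos* with *Jun*, 0.082 and 0.085. In LP4 the highest was *Fosl2* with *Junb*, 0.067. Of Ctrl cells with a *Fos* UMI, 22.7% (21.4% to 24.1%) had a *Fosb* UMI, against 16.9% (15.3% to 18.6%) of cells without one. In LP1 the shares were 16.0% (14.6% to 17.5%) and 11.8% (10.6% to 13.2%), and in LP4 1 cell held both. A *Jun* UMI was seen in 44.5% of Ctrl cells with a *Fos* UMI against 38.5% of the others, and in LP1 in 39.9% against 33.6%. In LP4, where r was lower, the shares were 13.5% (8.3% to 20.2%) of 141 cells and 6.71% (6.0% to 7.5%). The cells of a library share its depth and capture, counts of 1 or 2 UMIs hold r near 0, and the number of pairs past 0.1 changed with the depth used, so these values are given as a description of the libraries.

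**Figure D5:**
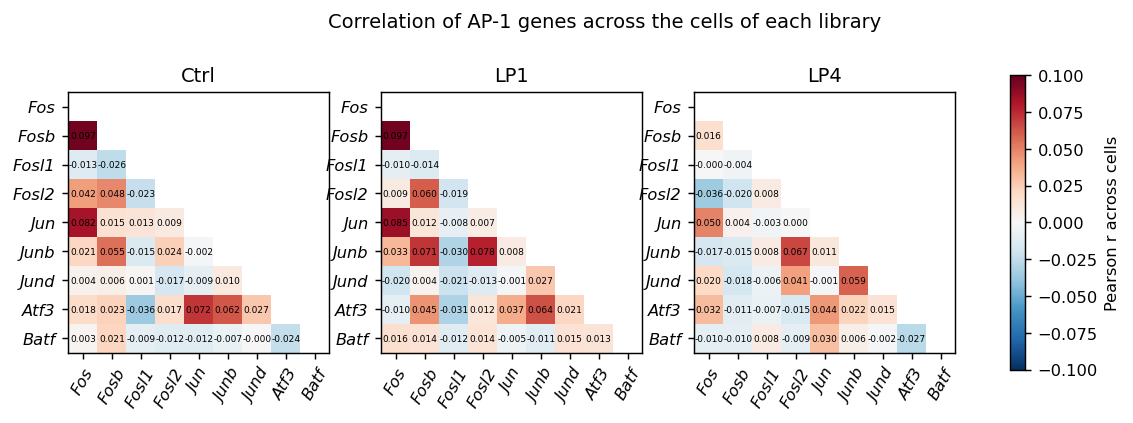
Pearson r across thinned cells between each pair of the 9 AP-1 genes, on log counts, in Ctrl, LP1 and LP4; red is above 0 and blue below, on a scale from -0.1 to 0.1. The strongest cells of the grid are *Fos* with *Fosb* (0.097 in Ctrl and LP1) and *Fos* with *Jun*. Both are paler in LP4, where only 3.05% of thinned cells had a *Fos* UMI, so r is not comparable with that of the other libraries.

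Genes outside the family were then ranked by their r with each AP-1 gene. The ranked genes, members included, number 5377 to 5456 per library against 8 other members, so the highest values are not comparable with those within the family. Among all genes ranked for *Fos*, *Fosb* was number 12 in Ctrl and number 6 in LP1, *Fos* was number 8 for *Jun* in LP1, and *Junb* was number 11 for *Fosl2* in LP4. *Atf3* was closest to the chemokine genes *Ccl4* and *Ccl3* in every library, among 5449 genes of at least 20 CPM in Ctrl. For Ctrl, LP1 and LP4 its r with *Ccl4* was 0.22, 0.25 and 0.18, and its r with *Ccl3* was 0.19, 0.23 and 0.19. Of cells with an *Atf3* UMI, 23.0% in Ctrl (21.5% to 24.5%), 34.3% in LP1 (32.3% to 36.4%) and 88.8% in LP4 (87.2% to 90.3%) had a *Ccl4* UMI, against 11.7%, 20.4% and 78.6% of cells without *Atf3*. *Junb* was closest to *Cxcl2*, another chemokine gene, in LP1 (0.16) and LP4 (0.18), followed in LP4 by *Pim1* (0.16) and *Cebpb* (0.16). In Ctrl *Junb* was closest to *Selenop*, *Plek* and *Lyz2* (0.11 to 0.12), with *Cxcl2* number 4 at 0.11.

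*Fos* was closest in Ctrl to *Egr1*, an immediate early gene, at 0.13, with *Cd44* and *Il1b* next at 0.13 and 0.12. In LP1 it was closest to *Errfi1*, *Id3* and *Nfkbia* (0.11 to 0.12), and in LP4 to *Atp6v0d2*, *Mmp12* and *Lgals3* (0.11 to 0.13), of which the first 2 lead cluster D. For *Fos* and *Mmp12* the sign differed between libraries, with r of -0.12 in Ctrl, -0.10 in LP1 and 0.11 in LP4. In LP4, 57.5% of the 141 cells with a *Fos* UMI had an *Mmp12* UMI (48.9% to 65.7%), against 36.0% (34.6% to 37.4%) of the other cells. In Ctrl the order was the other way, with 28.2% (26.8% to 29.6%) against 34.5% (32.5% to 36.6%).

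*Fosb* was closest in Ctrl to *Slc9a9*, *Il1b* and *Ier3* (0.17 to 0.18) and in LP1 to *Il1b*, *Zfp36l1* and *Selenop* (0.14 to 0.15). *Fosl2* was closest to *Slc9a9*, *Cd86* and *Il1b* in Ctrl (0.10 to 0.11), to *Ccl4*, *Ccl3* and *Ier3* in LP1 (0.10 to 0.11) and to *Cebpb*, *Mt2* and *Fcgr2b* in LP4 (0.09). *Jun* was closest to *Ier3*, *Rcan1* and *Ccl7* in Ctrl (0.12 to 0.13) and to *Lyz2*, *Ccl4* and *Ifrd1* in LP1 (0.09 to 0.11). *Jund* was closest to *Prdx1*, *Fth1* and *Mmp12* in Ctrl (0.08 to 0.11), to *Prdx1*, *Mmp12* and *Myof* in LP1 (0.09 to 0.12) and to *Ctsd*, *Psap* and *Mt2* in LP4 (0.10). *Batf*, which reached 20 CPM in LP4 alone, was close there to *Ifitm1* (0.10) and *Apoe* (0.06).

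Other genes of the pathway were read from lists. Of 14 bZIP genes whose proteins can pair with AP-1 proteins or share their sites, 13 reached 10 CPM. For LP1 over Ctrl, 1 of the 13 was higher by at least 2-fold and 0 were lower, beside 0.765% and 0.506% of all genes compared. LP4 over Ctrl had 2 of 13 higher and 4 lower, beside 10.5% and 9.95% of all genes. *Cebpb*, a factor of inflammatory and acute phase genes, had 98.8 CPM in Ctrl, 346 CPM in LP1 and 1657 CPM in LP4, a log2 ratio of LP4 to Ctrl of 4.07 (4.02 to 4.12). *Batf2*, a relative of *Batf*, had 4.65, 3.66 and 22.3 CPM (log2 ratio 2.26) and reached 10 CPM only through LP4, so it had to be high there to be counted.

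Of 18 genes of the MAP kinase route to AP-1, 16 reached 10 CPM. Between LP1 and Ctrl 0 passed 2-fold in either direction, beside 0.765% higher and 0.506% lower of all genes. Between LP4 and Ctrl 3 of 16 were higher and 3 lower in LP4, beside 10.5% and 9.95% of all genes. *Map3k1*, an upstream kinase of the JNK branch, had 91.9 CPM in Ctrl, 64.2 CPM in LP1 and 17.2 CPM in LP4 (log2 ratio of LP4 to Ctrl -2.42). *Map3k8*, which links Toll-like receptors to ERK, had 27.0, 24.1 and 86.4 CPM (1.68), and *Map2k1*, the ERK kinase MEK1, had 59.4, 70.6 and 187 CPM (1.65). These are RNA levels, and the activity of the kinases was not measured in these libraries.

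Of 9 activators known at the *Fos* and *Jun* promoters, 8 reached 10 CPM. For LP4 over Ctrl, 0 were higher and 2 were lower by at least 2-fold, beside 10.5% and 9.95% of all genes. For LP1 over Ctrl, 0 of 8 passed 2-fold, beside 0.765% higher and 0.506% lower of all genes. *Mef2c* had 211, 178 and 49.0 CPM in Ctrl, LP1 and LP4 (log2 ratio of LP4 to Ctrl -2.11), and *Mef2d* had 66.9, 61.2 and 26.2 CPM (-1.35), both of the MEF2 family. *Elk1*, an Ets factor at serum response elements, had 5.35, 7.41 and 10.5 CPM (0.97) and reached 10 CPM only through LP4.

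Of 20 genes with textbook AP-1 sites, all reached 10 CPM, and for LP4 over Ctrl 10 were higher and 6 lower by at least 2-fold, beside 10.5% and 9.95% of all genes, with a median log2 ratio of 0.97 beside -0.08 for all genes. For LP1 over Ctrl, 1 was higher and 0 were lower, beside 0.765% and 0.506% of all genes, with a median of 0.24. *Il6*, a cytokine gene, had 1.09, 1.45 and 24.7 CPM in Ctrl, LP1 and LP4 (log2 ratio of LP4 to Ctrl 4.50), and as it reached 10 CPM only through LP4, its place among the higher genes was set by that filter. *Vegfa*, an angiogenic factor, had 74.8, 52.4 and 4.90 CPM (-3.93), and *Timp1*, an inhibitor of matrix metalloproteinases, had 13.1, 18.1 and 183 CPM (3.81). Most of these genes also have sites for NF-kappaB or other factors, so their levels are no readout of AP-1 alone.

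Detachment and dissociation of cells are known to induce *Fos*, *Jun* and heat shock genes. All libraries were detached in the same way, as far as the methods state. Of 10 heat shock genes, 7 reached 10 CPM, and 0 of them passed 2-fold in either direction in any comparison. Of all genes compared, 0.765% were higher and 0.506% lower for LP1 over Ctrl. These shares were 10.5% and 9.95% for LP4 over Ctrl and 8.59% and 7.75% for LP4 over LP1, so 0 of 7 is not far from them. Relative to Ctrl the log2 ratios of the 7 heat shock genes had a median of 0.01 in LP1 and -0.43 in LP4. *Hsph1* stood at 35.1, 35.9 and 18.9 CPM (-0.89), *Hsp90ab1* at 1298, 1195 and 845 CPM (-0.62) and *Dnajb1* at 39.8, 40.0 and 29.4 CPM (-0.44). The part of detachment in the levels of the AP-1 genes was not tested.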

How the data were processed

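Single BMDMs were measured in 1 library each of Ctrl, LP1 and LP4. The authors made UMI counts with Cell Ranger (7.1.0 in the submitters' processing notes) on mm10 and deposited raw counts per gene and barcode, without normalization. The methods name a Chromium Single Cell 3′ kit and Cell Ranger count, and do not state how counting treated strand. Whether reads of *Jun*, *Junb*, *Jund*, *Fosl1* and *Atf3* were shared with opposite-strand genes that overlap them was not tested.

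Limits of the study on barcodes were applied (over 500 UMIs, over 500 genes, mitochondrial share below 5%), and 122, 13 and 45 kept cells of Ctrl, LP1 and LP4 were too shallow for thinning to 2000 UMIs. The paper reports fewer cells after its quality control than these limits kept here, so the sets of cells are not the same. Counts were summed per library and scaled to CPM. Intervals were exact Poisson (CPM), exact conditional binomial (ratios) and exact binomial (shares), all at 95%. With 1 library per condition, no test was run. The members and lists were chosen with earlier results of these data known. The genes named beside the 9 are the 3 of highest r with each gene of at least 20 CPM in a library, except mitochondrial genes, ribosomal protein genes and genes without a proper name, the 3 of each list with the largest LP4 to Ctrl ratio in either direction, and marker, cluster-leading or overlapping genes; *Fos* with *Mmp12* and the leading genes of clusters were singled out after their values were seen. Some genes that this rule names are not reported here.

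Cells were clustered on 30 principal components with 20 neighbours and Leiden resolution 0.5, with each gene centred within its library; clusters were named from marker lists, and 1 cluster of low UMI count was left unnamed. Doublets were treated by leaving out the 5% of cells with the most UMIs as an alternative, with no caller. Further alternatives were other cell filters, scaling by TMM or by the median of ratios, CPM computed after ribosomal protein and mitochondrial genes were dropped, means of cell shares, macrophage-like cells alone, no shared barcodes, other filters, depths, correlation measures and resolutions. Scripts were tested on simulated data. TMM factors came from edgeR 4.0.16 in R 4.3.3, clusters from leidenalg 0.10.2 and igraph 0.11.9, and the rest from scipy 1.17.1, scikit-learn 1.9.0, pandas 2.3.3 and numpy 2.4.6 under Python 3.11.15, with figures from matplotlib 3.10.9. Motifs were searched in RefSeq promoters of build GRCm38.p6, and gene positions came from GENCODE vM21.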

Additional observations from a re-analysis of the deposited data

Results flagged for a closer look

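For 3 of the AP-1 genes the ratio of a treated library to Ctrl had opposite directions in different clusters, with counting intervals on both sides of 0. How many of all genes do the same was not counted, so the count of 3 has no background beside it. The cells of cluster A differ between Ctrl and LP4 in their place in the finer clustering. In each case 1 library per condition gave 1 value per cluster, and the difference between clusters was not tested. The log2 ratio of LP4 to Ctrl for *Atf3* was -1.35 in cluster A and 0.22 in cluster E. For *Fosl2* it was -0.72 in cluster F and 0.88 in cluster D. For *Jund* it was -0.20 in cluster F and 0.26 in cluster A, and for LP1 over Ctrl *Jund* was -0.0912 in cluster E and 0.0762 in cluster B.

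Under TMM scaling the *Atf3* values became -1.18 and 0.39 and the *Fosl2* values -0.55 and 1.05, still of opposite sign. The interval of *Fosl2* in F ended at -0.14, and TMM shifted each ratio of LP4 to Ctrl by 0.17, so under TMM that interval spans 0. The *Jund* value of cluster F became -0.03 under TMM and 0.01 under median-of-ratios scaling, so its direction rests on the scaling. For LP1 over Ctrl the *Jund* values of clusters E and B became -0.02 and 0.15 under TMM, which shifted each ratio by 0.07. At a resolution of 0.3, *Atf3* ranged from -1.31 to 0.23 over 4 clusters and *Fosl2* from -0.69 to 0.53, and at 0.8, over 9 clusters, from -1.16 to 0.35 and from -0.74 to 0.93.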

How the results depend on the processing

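The 9 genes kept their direction in all 3 comparisons under the 10 other cell filters, scalings and cell selections, except *Fosl1* for LP1 over Ctrl (-0.05, and 0.02 with TMM and 0.03 with median of ratios) and *Atf3* for LP4 over LP1 (-0.04, and 0.05 and 0.09). These scalings moved the median log2 ratio of all genes for LP4 over Ctrl from -0.08 to 0.09 and 0.13, so ratios under about that size, such as those of *Jund*, are not separable from the scaling. With 1.5-fold in place of 2-fold, 2 genes were lower in LP1 than in Ctrl, *Fos* by 1.54 times and *Fosb* by 1.6 times. The share of all genes past 1.5-fold is not given here, so this count has no background beside it. The share of all genes past 2-fold depended on the filter. With every gene with a UMI it was 7.84% higher and 13.4% lower for LP1 over Ctrl, 23.2% lower for LP4 over Ctrl, and 14.4% higher and 17.7% lower for LP4 over LP1. In ratios a count of 0 was set to 3 UMIs, so a rare gene seen in 1 library alone can be called in the wrong direction. The shares without a filter rest partly on that floor. For LP1 over Ctrl, lower, the share was 1.80% with genes of at least 1 CPM and 0.321% with median of ratios. The number of pairs with r of at least 0.1 depended on depth, with 2 in Ctrl and 3 in LP1 at 4000 UMIs, and 3, 8 and 3 in Ctrl, LP1 and LP4 without thinning. It was 1 in LP1 without the log. No paired analysis was possible because each condition has 1 library. Depth limits *Fosb* in LP4 (90 UMIs) and *Batf* in Ctrl (83 UMIs), and no value here holds the spread from culture to culture.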

Other observations

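Cluster I, a small macrophage-like cluster led by the stress gene *Ddit3*, had 17 cells in each library. In LP4 it held 117 *Jun* UMIs, 5.01% of all *Jun* UMIs of that library, with 0.433% of its UMIs. In Ctrl it held 1.03% of *Jun* UMIs with 0.278% of UMIs, and in LP1 1.11% with 0.329%. Its part of the *Fos* UMIs was 0.284% in Ctrl, 0.457% in LP1 and 2.45% (37 UMIs) in LP4. With 17 cells, single cells can set these values.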
